A study of Mus musculus with 4 samples.

Results

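The complement genes of the mouse liver were compared between wild type (WT) animals and animals lacking neuregulin 4 (Nrg4 KO), an EGF-like protein released from cells that signals through ErbB receptors. With earlier results of these data known, a list of 29 components, receptors and regulators of the complement system was chosen by name. Of these, 26 had a probe set that the platform annotation pairs with a single symbol, out of 22180 genes with such a probe set. C3 and Cfd, the adipsin gene, had none and were not analysed here. Masp2 shares its probe set with Tardbp, a neighbouring gene, and was left out. Each of the 26 genes was read from 1 probe set, and all 26 passed the filter on dim genes, which asks for a mean not below the median probe set, as did 12458 genes in total.

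The samples were liver RNA pools from male mice, hybridised to Affymetrix Mouse Gene ST 2.1 arrays. Both genotypes ate the same NASH diet, which produces steatohepatitis, for 20 weeks, starting at an age of 3 months, and tissue was collected from animals in the random-fed state. There were 2 WT pools and 2 Nrg4 KO pools. The knockout allele, the strain and the number of animals in a pool are not stated in the sources used here, and no group on a control diet was analysed here. Values are log2 expression levels. A difference is KO minus WT on that scale, so that 1 unit is a doubling. The zero point of the scale is unknown, so a level is compared between pools for the same gene and never between genes. Nrg4 itself read 2.54 and 2.30 in WT, against 0.93 in both KO pools, a level that 303 probe sets share in KO pool 1. Hepatocyte markers were present in every pool, with the albumin gene Alb at 10.91 and 10.90 in WT and 10.70 and 10.81 in KO.

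Complement is a cascade of plasma proteins, most of them made by hepatocytes. It starts on antibody through C1q (the classical pathway), on microbial sugars through mannose-binding lectins (the lectin pathway) or directly on surfaces (the alternative pathway), and each route leads to cleavage of C3 and then of C5. Fragment C5b then gathers C6, C7, C8 and several C9 molecules into a pore, the membrane attack complex. Most C1q is made by macrophages, and soluble and membrane-bound regulators keep the cascade off the body's own cells.

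Complement genes did not move as one block in the KO livers. The 6 listed genes of the terminal complex had lower means in KO, 3 of them at an unadjusted p under 0.05, with C8b and C8a furthest down, while C7, a terminal gene outside the list, was higher. The 3 C1q genes and the receptor C3ar1 had higher means, and most other components and regulators lay within 0.5 of WT. No member passed an adjusted p of 0.05 over all genes (limma), a threshold that 6 genes passed (0.0482% of those tested, 0.0241% in each direction). At an unadjusted p under 0.05 there were 3 members higher, C1qb, C1qc and C3ar1 (11.5% of 26, against 6.37% of all genes tested), and 3 lower, C6, C8a and C8b (11.5%, against 3.92%). When limma let the variance depend on intensity, C8b and C8a were called as lower, 7.69% of the members against 0.698% of all genes, and no member as higher (0.393% of all genes). Both KO pools lay below both WT pools in 13 of 26 members (50%, against 19.5% of all genes) and above them in 7 (26.9%, against 22.2%), which include C5ar1, a dim gene that passed the filter through its KO values. The difference was below 0 in 18 of 26 members, against 48.4% of all genes. As the list was chosen with earlier results known, these shares are descriptive and test nothing. The median difference was -0.15 over the 26 members, or -0.097 without KO pool 1, and 0.01 over all genes tested.

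**Figure D1:**
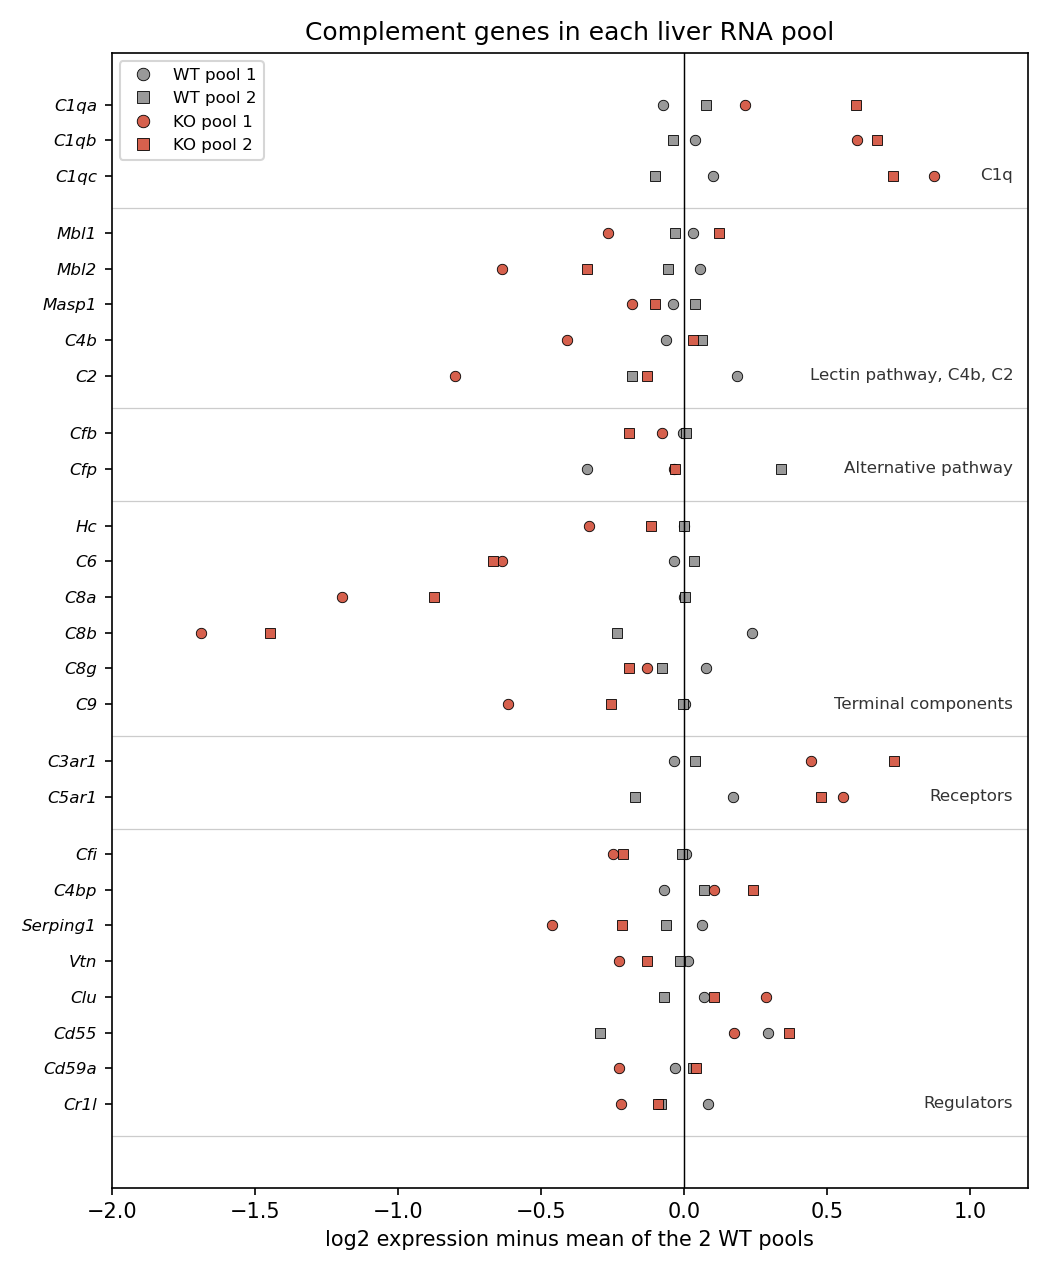
Log2 expression of 26 complement genes in each pool, relative to the mean of the 2 WT pools (x axis), grouped by role. Circles are pool 1 and squares pool 2, grey for WT and red for KO; the red points of C8b and C8a lie furthest to the left and those of the C1q genes to the right.

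The listed terminal genes were the group with the lowest median, at -0.54 over 6 genes. In each of the 6 both KO pools lay below both WT pools, as in 19.5% of all genes tested. The gap between the groups was only 0.05 in C8g and 0.11 in Hc. C8 is built from 3 chains. C8b encodes the beta chain, which docks onto the growing complex. Its level was 8.05 and 7.58 in WT, against 6.12 and 6.37 in KO. The highest KO pool lay 1.21 below the lowest WT pool. The difference was -1.57 ± 0.24 (SE; 95% confidence interval -2.17 to -0.96), 2.96-fold lower, with an adjusted p of 0.197 by limma and 0.00352 with a variance that follows intensity. By size it held rank 35 of 12458, counted from the lowest difference.

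C8a encodes the alpha chain, which with C9 inserts into the membrane. It read 8.52 and 8.53 in WT and 7.33 and 7.65 in KO, so the gap between the groups was 0.87 and the WT pools were nearly equal. The difference was -1.03 ± 0.21 (SE; 95% confidence interval -1.55 to -0.52), 2.05-fold lower, with an adjusted p of 0.269 by limma and 0.00455 with a variance that follows intensity. The third chain, gamma, is a small lipocalin joined to alpha and encoded by C8g. Its levels were 7.30 and 7.14 in WT and 7.09 and 7.03 in KO, a difference of -0.16 ± 0.19 (SE) with an interval of -0.64 to 0.32. The intervals of C8b and C8g do not overlap, while a difference between their responses was not tested.

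C8a and C8b lie next to each other on chromosome 4 in the RefSeq order of assembly GRCm38.p6, and C8g is on chromosome 2. The tested genes nearest to the C8a and C8b pair did not share its lower level. Oma1 and Prkaa2 differed by 0.01 and -0.06, and Fyb2 by 0.87 at an unadjusted p of 0.082. Promoter windows of the members, 250 bases before to 50 after the start site, were taken from RefSeq (GRCm38.p6) for 21 of 29 members. C1qa, Masp1, C4b, C2, Cfb, Cfi, Serping1 and Clu had no entry. The windows of the 3 terminal genes at an unadjusted p under 0.05 are shown because they were the lowest members. Capitals mark GTTAAT, a part of the site of the hepatocyte factor HNF1, and TTCNNNGAA, a site for STAT factors, on either strand.
C8b (chr4:104766067-104766366, plus strand): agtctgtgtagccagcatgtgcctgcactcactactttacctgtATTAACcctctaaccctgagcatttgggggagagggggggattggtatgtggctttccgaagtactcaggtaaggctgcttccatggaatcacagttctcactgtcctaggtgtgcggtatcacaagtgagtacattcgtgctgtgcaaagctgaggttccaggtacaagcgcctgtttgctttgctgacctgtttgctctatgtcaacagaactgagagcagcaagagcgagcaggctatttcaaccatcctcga
C8a (chr4:104876349-104876648, minus strand): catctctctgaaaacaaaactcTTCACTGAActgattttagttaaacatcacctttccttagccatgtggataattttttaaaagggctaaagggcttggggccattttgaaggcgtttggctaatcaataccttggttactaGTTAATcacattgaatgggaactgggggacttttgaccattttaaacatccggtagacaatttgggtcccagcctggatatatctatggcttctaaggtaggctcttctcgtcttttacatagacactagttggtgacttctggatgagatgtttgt
C6 (chr15:4726960-4727259, plus strand): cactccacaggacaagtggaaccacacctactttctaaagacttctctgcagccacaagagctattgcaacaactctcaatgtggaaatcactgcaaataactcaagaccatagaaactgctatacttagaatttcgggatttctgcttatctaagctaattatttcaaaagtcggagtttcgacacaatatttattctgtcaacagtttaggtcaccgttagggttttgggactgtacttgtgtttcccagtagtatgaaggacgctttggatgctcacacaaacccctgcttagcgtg
GTTAAT was found once in each C8 window, on opposite strands, and TTCNNNGAA once, in the C8a window, with no overlap between them. The C6 window held neither. Also searched on both strands were TTGCNNAA for C/EBP factors, TATAAA for the TATA box and GAGGAA for PU.1, and none of them occurs in these 3 windows. Among the 21 members with a window, GTTAAT occurred in 7 (33.3%), C4bp, C8a, C8b, Cd55, Cfp, Hc and Vtn, against 7.10% of 32851 windows in the table. TTCNNNGAA occurred in 3 (14.3%, against 8.30%), TTGCNNAA in 2 (9.52%, against 10.8%) and TATAAA in 4 (19.0%, against 13.6%). Beside C8a and C8b, the members that hold GTTAAT were Hc at -0.22, Vtn at -0.18, Cfp at -0.03, C4bp at 0.17 and Cd55 at 0.27. A match is a string of letters and not a measured site.

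C6 binds C5b first. Its levels were 6.29 and 6.36 in WT and 5.69 and 5.66 in KO, with both KO pools close together and 0.60 or more below WT. The difference was -0.65 ± 0.19 (SE; interval -1.12 to -0.19; adjusted p = 0.367, or 0.0657 with a variance that follows intensity). C9, which polymerises into the pore wall, read 8.28 in both WT pools and 7.67 and 8.03 in KO. Its difference of -0.43 ± 0.21 (SE) ranged from -0.62 to -0.25 when 1 pool was left out, and the larger part came from KO pool 1. Hc encodes C5, the precursor of C5b and of the anaphylatoxin C5a. It read 8.92 in both WT pools and 8.58 and 8.80 in KO, a difference of -0.22 ± 0.20 (SE; interval -0.71 to 0.27).

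Hepatocyte markers were slightly lower in the same pools. Of 16 listed, 14 had a value, all tested, with 10 lower and 4 higher, a median of -0.14 and none past an adjusted p of 0.05. Both KO pools lay below both WT pools in 7 of the 14 (50%), the same share as among the 26 members. It was 19.5% of all genes. Both lay above WT in 1 (7.14%, against 22.2% of all genes). When the variance followed intensity, limma called 1 of them, Cps1, as lower (adjusted p = 0.0427). Their summed level was 120.9 and 120.0 in WT and 117.0 and 118.9 in KO. Per gene, KO pool 1 stood at -0.25 and KO pool 2 at -0.11 against the WT mean. The mean of the 6 terminal genes was -0.77 and -0.59 in those pools. The 3 hepatocyte markers with the smallest p were Foxa3 (-0.85), Tat (-0.43) and Cps1 (-0.39). The part of hepatocyte RNA in the lower terminal genes was not tested.

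**Figure D2:**
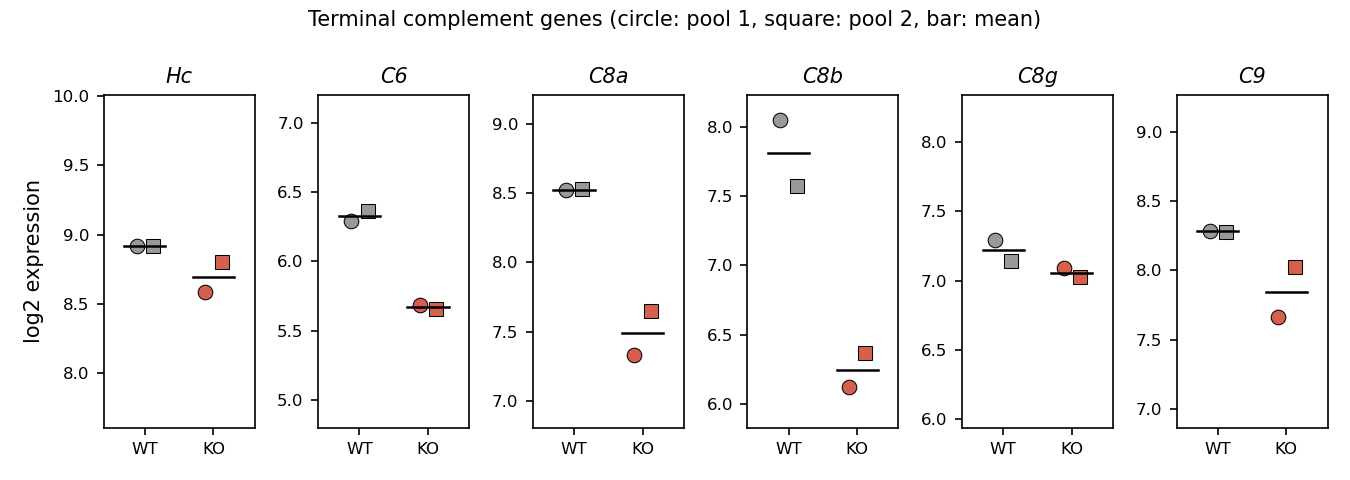
Log2 expression of the 6 terminal complement genes, 1 panel per gene, with axes that span the same range. Each point is a pool and each bar a genotype mean; the KO points of C8b (6.12 and 6.37) and C8a (7.33 and 7.65) are well below WT, and those of C8g (7.09 and 7.03) are just below it.

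C1q, the recognition molecule of the classical pathway, is assembled from the A, B and C chains encoded by C1qa, C1qb and C1qc. The 3 genes lie side by side on chromosome 4. C1qc was at 3.39 and 3.19 in WT and 4.16 and 4.02 in KO. Its difference was 0.80 ± 0.20 (SE; interval 0.31 to 1.30; adjusted p = 0.318), 1.74-fold higher. C1qb was at 5.81 and 5.73 in WT and 6.37 and 6.44 in KO, a difference of 0.64 ± 0.19 (SE; interval 0.17 to 1.11; adjusted p = 0.377, or 0.0677 with a variance that follows intensity). In both genes the KO pools stood more than 0.5 above the WT pools, with a spread within each genotype of at most 0.21. C1qa was at 4.79 and 4.94 in WT and 5.08 and 5.46 in KO, with a gap of 0.14. Its difference of 0.41 ± 0.22 (SE; interval -0.15 to 0.96) was 0.21 without KO pool 2 and 0.60 without KO pool 1. The tested neighbours of the cluster, Epha8, Zbtb40 and Wnt4, differed by 0.15, -0.52 and 0.40.

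The windows of C1qb and C1qc are shown as those of the C1q genes at an unadjusted p under 0.05. Capitals mark GAGGAA, the core read by the myeloid factor PU.1, on either strand.
C1qb (chr4:136886151-136886450, minus strand): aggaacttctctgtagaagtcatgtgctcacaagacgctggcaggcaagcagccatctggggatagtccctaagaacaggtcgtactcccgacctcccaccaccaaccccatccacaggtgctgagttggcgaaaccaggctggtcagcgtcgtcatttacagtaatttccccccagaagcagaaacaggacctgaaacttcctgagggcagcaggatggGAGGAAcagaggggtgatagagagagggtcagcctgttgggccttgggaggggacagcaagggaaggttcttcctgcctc
C1qc (chr4:136892865-136893164, minus strand): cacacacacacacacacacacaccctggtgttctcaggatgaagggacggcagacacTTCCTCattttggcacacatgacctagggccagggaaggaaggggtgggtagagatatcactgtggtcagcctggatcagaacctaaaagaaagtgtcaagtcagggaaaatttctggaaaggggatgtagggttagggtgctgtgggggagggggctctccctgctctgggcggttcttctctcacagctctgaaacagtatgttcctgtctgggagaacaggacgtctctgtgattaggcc
Each holds GAGGAA once, on opposite strands, and none of the other searched strings. GAGGAA occurred in 4 of 21 member windows (19.0%), C1qb, C1qc, Cd59a and Cfp, against 28.3% of all windows, a share below that of the table.

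Macrophage markers moved with C1q in part. In bulk RNA, fewer cells of a type and less RNA per cell cannot be told apart. Of 14 listed markers of recruited and lipid-associated macrophages, 13 had a value, and KO exceeded WT in 12 of the 13 (median 0.73). Their summed level was 41.0 and 40.6 in WT and 50.3 and 51.3 in KO, and those with the smallest p were Cd63 (0.98), Trem2 (1.30) and Ms4a7 (1.28). Of 10 markers of resident Kupffer cells, 6 were higher and 4 lower, with a median of 0.23 and a summed level of 41.5 and 43.0 in WT and 41.0 and 38.9 in KO. The scavenger receptors Marco and Cd163 were lower in KO, at -2.37 and -1.53, and Folr2, the next by p, was at 0.50. The KO mean of Marco lay only 0.17 above the median of all probe sets, so the size of its difference is uncertain. No marker of either list passed an adjusted p of 0.05, while a variance that follows intensity called Cd63 as higher and Marco as lower. Averaged over the C1q genes, KO pool 1 stood 0.56 and KO pool 2 stood 0.67 above the WT mean. The same averages were 0.73 and 0.80 for the recruited macrophage list. For the Kupffer cell list they were -0.12 and -0.33. Marco and Cd163 pull the Kupffer cell averages down, while 6 of the 10 markers were higher. The part of macrophage number in the C1q values was not tested.

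**Figure D3:**
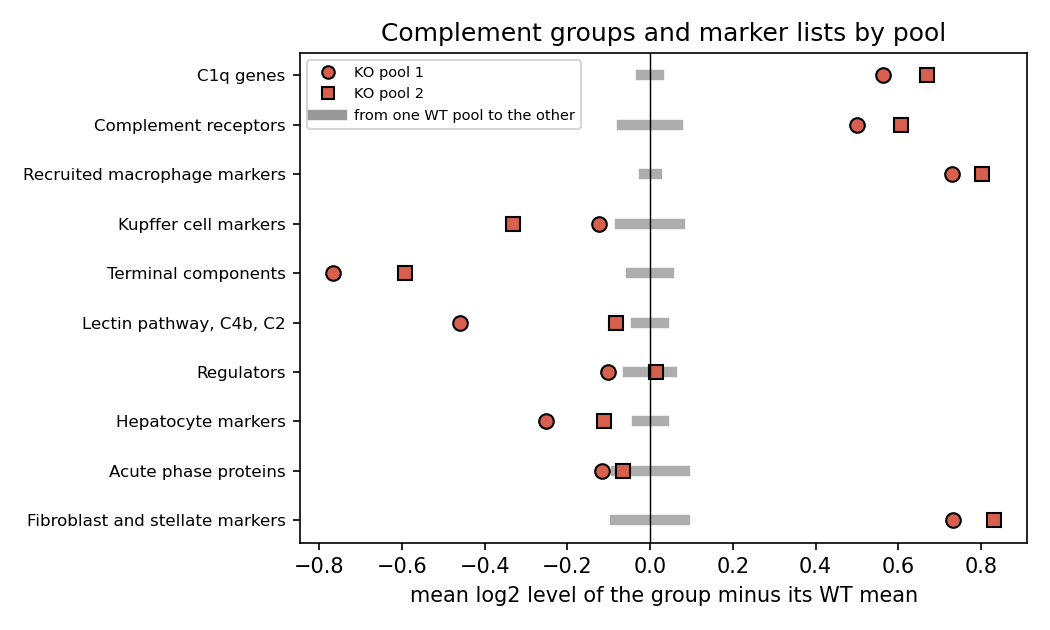
Mean log2 level of each complement group and marker list in KO pool 1 (circle) and KO pool 2 (square) relative to the WT mean (x axis), with a grey bar from one WT pool to the other. C1q (0.56 and 0.67) and the recruited macrophage list (0.73 and 0.80) lie to the right, and the terminal components (-0.77 and -0.59) lie to the left of the hepatocyte list (-0.25 and -0.11).

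The anaphylatoxin receptors differed in how well they were measured. C3ar1, the receptor for C3a on myeloid cells, read 3.32 and 3.40 in WT and 3.80 and 4.09 in KO. The groups were 0.41 apart and the difference was 0.59 ± 0.21 (SE; interval 0.08 to 1.10; adjusted p = 0.433). C5ar1, the receptor for C5a on neutrophils and macrophages, read 0.55 and 0.21 in WT and 0.93 and 0.86 in KO, means of 0.38 and 0.90. Its WT mean lay 0.16 below the median of all probe sets, so that it passed the filter only through KO, and a stricter filter drops it. Its value in KO pool 1 is one that 303 probe sets share, and no rise is read from it. Of 10 neutrophil markers 9 were below the filter on dim genes, and the one tested, Csf3r, differed by 0.15. The summed neutrophil level was 3.12 and 4.06 in WT and 3.15 and 2.73 in KO.

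The 5 genes of the lectin pathway and its C3 convertase had a median of -0.19, and no member reached an unadjusted p under 0.05. The pools overlapped in 3 of them, Mbl1, C4b and C2. The median was -0.10 without KO pool 1, -0.12 without WT pool 2 and -0.41 without KO pool 2. Mbl2, which encodes mannose-binding lectin C, was lower in both KO pools, at 5.70 and 6.003 against 6.40 and 6.28 in WT. The difference was -0.49 ± 0.21 (SE; interval -1.01 to 0.03). The other mannose-binding lectin gene, Mbl1, overlapped between genotypes, at 6.43 and 6.37 in WT and 6.13 and 6.52 in KO. Its difference of -0.07 ± 0.22 (SE) turned to 0.022 with quantile normalization and to 0.12 without KO pool 1. Masp1, a serine protease that acts with these lectins, differed by -0.14 ± 0.19 (SE), from 6.80 and 6.87 to 6.65 and 6.73.

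C2 and C4b supply the C3 convertase of the classical and lectin pathways. C2 read 5.39 and 5.02 in WT and 4.41 and 5.08 in KO, so that KO pool 1 alone was low and KO pool 2 lay within the WT range. Its difference was -0.47 ± 0.29 (SE), and -0.13 without KO pool 1. C4b read 7.70 and 7.83 in WT and 7.36 and 7.80 in KO, and its difference of -0.19 ± 0.23 (SE) turned to 0.032 without KO pool 1. C4b has a near-identical neighbour, C4a, so its probe set may read both. Averaged over this group, KO pool 1 stood at -0.46 and KO pool 2 at -0.08 against WT.

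The alternative pathway was represented by 2 genes with differences near 0, and their median of -0.08 ran from -0.26 without WT pool 1 to 0.088 without WT pool 2. Cfb, factor B, which forms the convertase with C3b, read 8.36 and 8.37 in WT and 8.29 and 8.17 in KO, a difference of -0.13 ± 0.19 (SE; interval -0.60 to 0.34). Cfp encodes properdin, a stabiliser of that convertase made by leukocytes. It read 3.32 and 4.00 in WT and 3.62 and 3.63 in KO, a difference of -0.03 ± 0.27 (SE) whose sign turned without WT pool 2 (0.30).

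**Figure D4:**
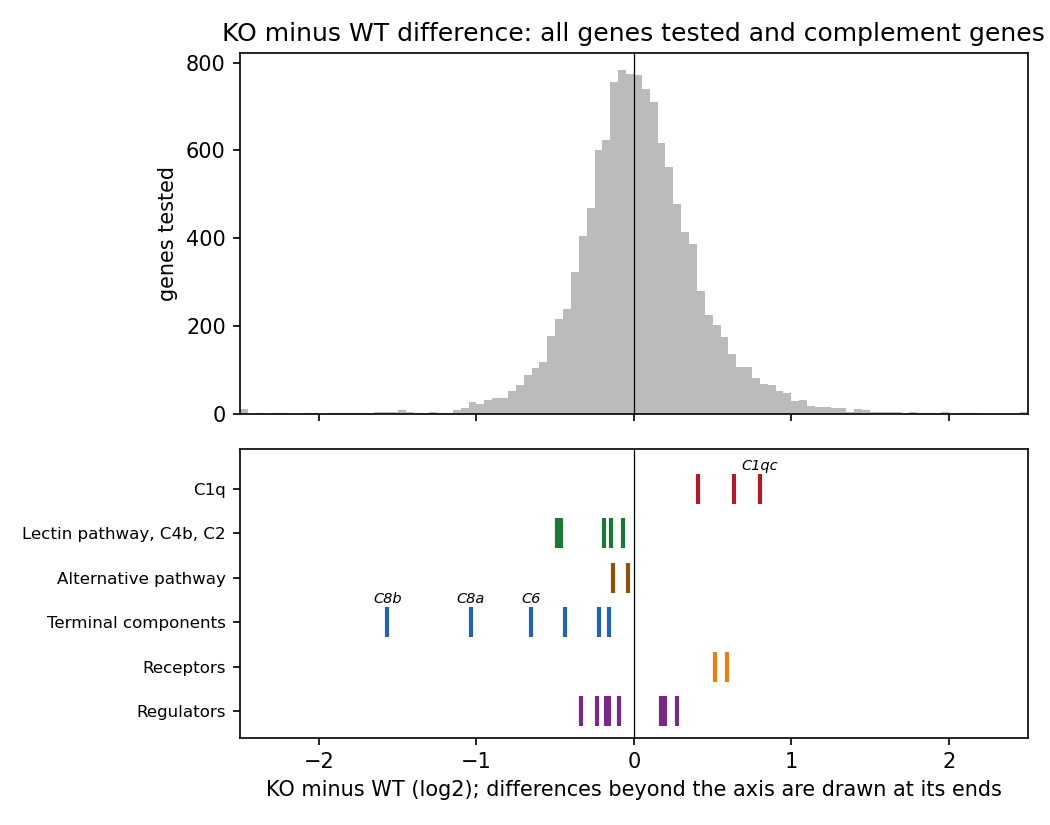
Differences between KO and WT (log2, x axis) for all 12458 genes tested (upper panel, number of genes per bin) and for the 26 complement genes by role (lower panel, 1 tick per gene). C8b (-1.57), C8a (-1.03) and C6 (-0.65) lie in the left tail and C1qc (0.80) in the right tail.

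The 8 regulators had a median of -0.12, and none reached an unadjusted p under 0.05. That median was -0.024 without KO pool 1 and -0.22 without KO pool 2. Of the soluble inhibitors, Serping1, the C1 inhibitor, read 8.71 and 8.59 in WT and 8.19 and 8.43 in KO, a difference of -0.34 ± 0.20 (SE; interval -0.84 to 0.17). Cfi, factor I, the protease that cuts C3b and C4b, read 8.89 and 8.88 in WT and 8.63 and 8.67 in KO. The gap between its groups, 0.21, was wider than the spread within either, and the difference was -0.23 ± 0.19 (SE; interval -0.69 to 0.23). C4bp, a cofactor of factor I, differed by 0.17 ± 0.19 (SE). Vitronectin (Vtn) and clusterin (Clu) both bind the terminal complex in plasma and keep it out of membranes. Vtn was at 9.44 and 9.41 in WT and 9.20 and 9.29 in KO, a difference of -0.18 ± 0.19 (SE), and Clu at 8.11 and 7.97 in WT and 8.33 and 8.15 in KO, a difference of 0.20 ± 0.20 (SE). The interval of each of these 5 genes included 0.

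The membrane regulators stayed within 0.3 of WT. Cd59a, which blocks C9 in the pore, read 7.67 and 7.73 in WT and 7.47 and 7.74 in KO, a difference of -0.09 ± 0.20 (SE; interval -0.60 to 0.41). Cr1l encodes Crry, a mouse inhibitor of C3 convertases, and differed by -0.16 ± 0.20 (SE; interval -0.64 to 0.33). Cd55, the decay accelerating factor, differed by 0.27 ± 0.26 (SE; interval -0.38 to 0.92), with WT pools at 3.56 and 2.97 and KO pools at 3.44 and 3.63. Its sign turned without WT pool 2 (-0.023), and that of Cd59a turned without KO pool 1 (0.042).

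A second list, also chosen with earlier results known, held 29 further genes of the complement system. Of these, 26 had a value and 22 were tested. Of the 22, 10 were higher and 12 lower, with a median of -0.07, or 0.0094 without KO pool 1, -0.13 without KO pool 2 and -0.15 without WT pool 2. None passed an adjusted p of 0.05 with limma, while 4 were higher and 6 lower at an unadjusted p under 0.05 (18.2% and 27.3%, against 6.37% and 3.92% of all genes tested). The 6 lower include C4a, whose difference is not relied on, as described below. With a variance that follows intensity Colec10 and Susd4 were called as lower, and so was C4a, which passed the filter on dim genes only through its WT pools. These 3 are 13.6% of the 22, against 0.698% of all genes, and none was called as higher (0.393% of all genes). The shares for this list are descriptive as well. Colec10, a liver collectin of the lectin pathway, read 4.92 and 4.28 in WT and 2.29 and 3.04 in KO, a difference of -1.93 ± 0.35 (SE; adjusted p = 0.246, or 0.0258 with a variance that follows intensity). Susd4, a sushi domain protein that inhibits complement, read 3.31 and 3.42 in WT and 1.53 and 2.01 in KO, a difference of -1.60 ± 0.24 (SE; adjusted p = 0.183, or 0.0464).

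C4a is the mouse C4 copy known as sex-limited protein, expressed under androgen control in males of many strains. It read 1.36 and 2.41 in WT and -0.23 and 0.12 in KO. The fitted difference was -1.94, while the KO mean lay 0.60 below the table's median, so neither a fold nor its call is relied on, and its resemblance to C4b leaves the source of the signal uncertain.

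Of the terminal components, C7 was on this second list and stood apart in direction. It read 1.95 and 1.45 in WT and 2.47 and 3.26 in KO, a difference of 1.16 ± 0.33 (SE; interval 0.34 to 1.99; adjusted p = 0.367). C6, near C7 on chromosome 15 with Mroh2b between them, was at -0.65. In the same pools 10 of 12 fibroblast and stellate cell markers were higher, with a summed level of 49.7 and 47.7 in WT and 57.5 and 58.7 in KO and Dpt (1.97), Lum (1.26) and Pdgfra (1.67) as those with the smallest p. None passed an adjusted p of 0.05, while limma with a variance that follows intensity called Dpt and Pdgfra as higher. The part of such cells in the C7 value was not tested. Itgb2 and Itgax, the chains of complement receptor 4, which binds the C3 fragment iC3b on myeloid cells, were at 0.96 ± 0.26 and 0.99 ± 0.28 (SE). Itgb2 read 3.46 and 3.32 in WT and 4.64 and 4.06 in KO, and Itgax 1.73 and 1.50 in WT and 2.94 and 2.26 in KO. Itgam, the partner of Itgb2 in complement receptor 3, differed by 0.13 ± 0.25 (SE).

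**Figure D5:**
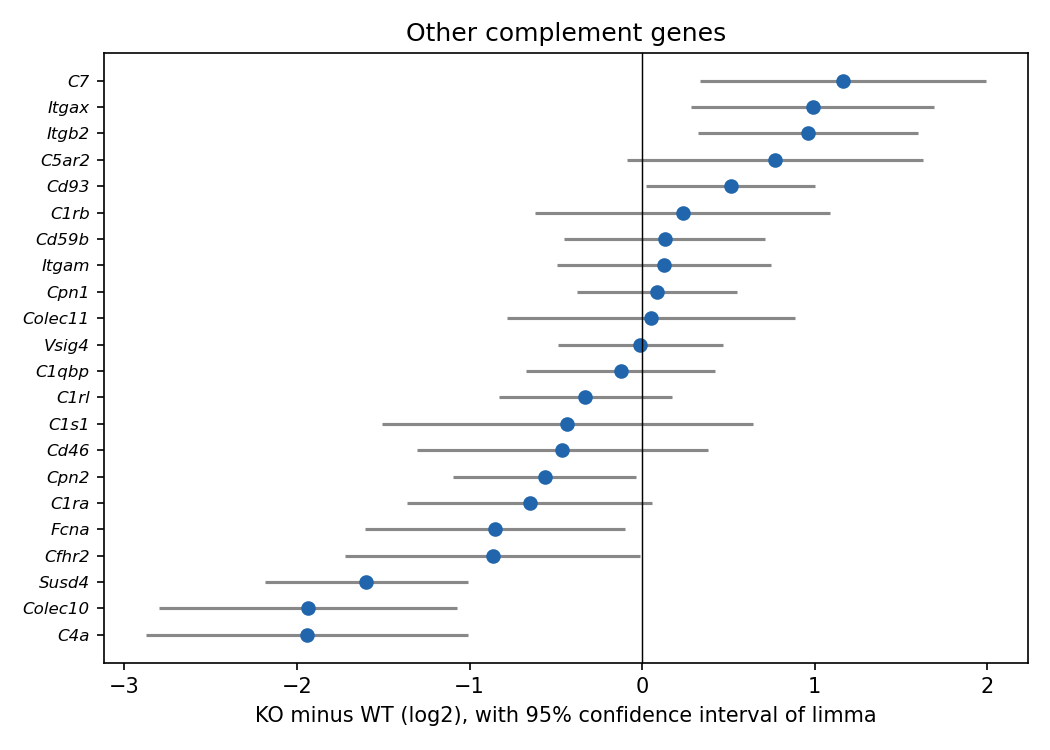
Differences between KO and WT (log2, x axis) of 22 further complement genes, as points with the 95% confidence interval of limma. C4a (-1.94), Colec10 (-1.93) and Susd4 (-1.60) are lowest and C7 (1.16) is highest. The size of the C4a difference is not relied on, as its KO mean lies below the median of all probe sets.

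Acute phase proteins, many of which hepatocytes secrete together with complement in inflammation, had a median difference near 0. Of 15 with a value, 12 were lower (against 48.4% of all genes) and 3 higher, with a median of -0.06. With limma 1 was higher and 2 lower at an unadjusted p under 0.05 (6.67% and 13.3%, against 6.37% and 3.92% of all genes). Those were Lcn2 at 0.62, Apcs at -0.58 and Saa3 at -0.60, and none passed an adjusted p of 0.05. Their summed level was 109.0 and 111.5 in WT and 108.5 and 109.2 in KO, with KO pool 2 inside the WT range and KO pool 1 just below it.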

How the data were processed

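The deposited values are log2 expression per probe set, made by the authors with oligo, RMA and limma per the submitters' processing notes. No versions, build or annotation are stated in the sources used here. Liver RNA (400 ng per array, per the labels) came from 2 pools per genotype, and the number of arrays limits precision. The p-values rest on the spread between pools, which limma moves towards that of all genes tested. They do not measure the spread between animals. Probe sets with 1 symbol (23521 of 41345) were used, keeping for each gene the one with the highest mean. KO minus WT was fitted over 12458 genes with limma 3.58.1 in R 4.3.3 (lmFit, eBayes, 2 residual and 3.67 prior degrees of freedom), with Benjamini-Hochberg adjustment over all of them, and tested on simulated data. All 29 members are named, and of the further complement genes the 6 with the smallest p. Of each marker list with at least 3 tested genes the 3 with the smallest p are named, and other genes were chosen after their values were seen. Members and lists were chosen with earlier results of these data known. Same-numbered pools did not deviate together (correlation of deviations -0.04).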

Additional observations from a re-analysis of the deposited data

How the results depend on the processing

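No member passed an adjusted p of 0.05 with limma under the settings tried, except when the variance followed intensity. That setting called 136 genes, 2 members and 3 further complement genes, among them C4a, whose call is not relied on. In the same fit 12 of 26 members (3 higher, 9 lower) had an unadjusted p under 0.05. So did 1518 of 12458 genes (795 higher, 723 lower). With the replicate number as a block, 2 genes and no member passed. Without 1 pool, 0 genes passed and 906 to 1314 had an unadjusted p under 0.05, with 2 to 7 members and 6 to 8 further complement genes among them. The group medians without 1 pool ran from -0.22 to -0.10 for all members, 0.60 to 0.68 for C1q and -0.41 to -0.10 for the lectin group. They ran from -0.26 to 0.088 for the alternative pathway and -0.63 to -0.46 for the terminal genes. For the regulators they ran from -0.22 to -0.024 and for the further genes from -0.15 to 0.0094. The median of the 2 receptors ran from 0.48 to 0.62. It includes C5ar1, which passed the filter only through KO, so no rise of the group is read from it. The C1q median was 0.73 with quantile normalization, and that of the further genes turned to 0.0043 when dim genes were kept and to 0.021 under a stricter filter. Signs turned for Mbl1 (0.022 with quantile normalization, and -0.27 to 0.12 without 1 pool). They also turned without KO pool 1 for C4b (-0.41 to 0.032 without 1 pool) and Cd59a (-0.23 to 0.042), and without WT pool 2 for Cfp (-0.37 to 0.30) and Cd55 (-0.023 to 0.57). The causes were not tested. Without 1 pool, C8b lay between -1.80 and -1.33 and C8a between -1.19 and -0.87. The pools of C8b, C8a, C6 and the C1q genes do not overlap, so leaving out 1 pool could not turn their sign.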

Other observations

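Lists of other cell types a liver sample can hold gave these values. Of 7 cholangiocyte markers with a value 6 were tested, 5 higher and 1 lower (Krt19, -0.06), with a median of 0.79. Those with the smallest p were Cdh1 (1.62), Mmp7 (1.95) and Krt7 (0.40). None passed an adjusted p of 0.05, while limma with a variance that follows intensity called Cdh1 and Mmp7 as higher. Krt7 passed the filter on dim genes only through KO. Its value in KO pool 1 is one that 303 probe sets share, and no rise is read from it. The WT mean of Mmp7 lay only 0.02 above the table's median. The 8 adipocyte markers had a median of 0.09, with Adipoq at -1.01, Cidec at 0.67 and Fabp4 at 0.74. Adipoq read 0.93 in KO pool 1, a value that 303 probe sets share. Its KO mean lay 0.08 above the table's median, so the size of its difference is uncertain. The 1 erythroid marker with a value, Slc4a1, differed by -0.07. The probe set shared by Masp2 and Tardbp read 7.85 and 7.96 in WT and 7.63 and 7.69 in KO, a difference of -0.24.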
